A study of Mus musculus with 6 samples.

Results

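The genes described here code for the proteins of the cytosolic ribosome. They were taken by symbol from the deposited table of 23481 genes: large-subunit names (Rpl), small-subunit names (Rps) and the stalk names (Rplp), with the endings x, l, a and al, plus Rpsa. Of 81 symbols that fit, 77 had at least 50 reads summed over the 5 libraries with reads. They divide into 43 genes of the large subunit, 3 genes of its stalk (Rplp0, Rplp1 and Rplp2) and 31 genes of the small subunit. The 4 symbols under the minimum were Rpl3l with 5 reads, and Rpl10l, Rpl26 and Rpl39l with 0 reads each. The rule itself uses no value beyond that minimum, and all 77 passed the filter on low counts.

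The cells were 4T1, a mouse mammary carcinoma line, named 4T1_T in the title of the table, grown in DMEM with non-essential amino acids. They carried a short hairpin RNA: shAsns-1 or shAsns-2, both against Asns, or shRenilla, a control against a luciferase that mouse cells lack. Asns codes for asparagine synthetase. The design asks which messenger RNAs change when Asns is knocked down. By the labels every hairpin has replicates A and B. The shAsns-1 B column was empty (0 reads throughout), which leaves 1 shAsns-1 library beside 2 each of shAsns-2 and shRenilla; pairs of values below are in the order A, B. Nothing says that replicates came from separate cultures, and p-values therefore measure the spread between libraries, which may be technical.

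Asns, the targeted gene, stood at 109 CPM in the shAsns-1 library, at 46.5 and 44.7 CPM in shAsns-2, and at 58.7 and 56.2 CPM in shRenilla (CPM, reads per 1000000 gene reads, scaled here by the TMM factors of edgeR). Its log2 fold change against shRenilla was -0.34 in shAsns-2 (SE 0.0882, adjusted p = 0.216 by edgeR's quasi-likelihood test) and 0.92 in the shAsns-1 library (SE 0.101, adjusted p = 6.27e-05). The second value goes against the label, so that library is called the library labelled shAsns-1. Gene reads ran from 10244753 to 15955168 a library, and 3 reads correspond to 0.188 to 0.293 CPM before TMM scaling. The library labelled shAsns-1 had the fewest gene reads and had reads at 17672 genes, against 15052 to 15392 in the other 4. Olfactory receptor genes summed to 39.1 CPM there before TMM scaling, against 6.62 to 10.8 CPM in the others. Of the epithelial markers of 4T1 (Krt8, Krt18, Epcam, Cdh1), all 4 were expressed, and Epcam (-0.69, adjusted p = 0.00259) and Cdh1 (-0.48, adjusted p = 0.0135) fell in the library labelled shAsns-1 relative to shRenilla. Krt8 and Krt18 did not reach an adjusted p under 0.05 there (edgeR), and 1 of the 4 markers was above 0 (0.04). The 9 markers of blood, endothelial, fibroblast and fat cells summed to 44.5 CPM before TMM scaling in the library labelled shAsns-1. They summed to 33.5 to 35.6 CPM, also unscaled, in the others, and 2 of the 9 passed the filter on low counts.

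A ribosome carries nearly every ribosomal protein in 1 copy, and the synthesis of these proteins is controlled largely at translation. Messenger RNAs of ribosomal proteins start with a C followed by a run of pyrimidines, the 5' terminal oligopyrimidine (TOP) tract, through which mTORC1 and the RNA-binding protein Larp1 set their translation when amino acids are short. The stalk is the exception in copy number: Rplp0 anchors dimers of the acidic proteins Rplp1 and Rplp2, and these recruit the GTPases that drive elongation.

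The start of the messenger is shown for 6 members, because the TOP tract is the feature through which the family is known to respond to amino acid supply. RefSeq starts (GRCm38.p6) matched 57 of the 77 members. Each line gives the 10 bases before the annotated start and the 20 bases from it on, in the direction of transcription, with the run of C and T that begins at the start in capitals.
Rplp2, chr7:141447641-141447670, plus strand: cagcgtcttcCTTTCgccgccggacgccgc
Rps18, chr17:33955646-33955675, minus strand: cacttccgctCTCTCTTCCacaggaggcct
Rps6, chr4:86857348-86857377, minus strand: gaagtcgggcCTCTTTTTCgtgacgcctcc
Rpl14, chr9:120571507-120571536, plus strand: ggccctctctCTTCTCgctgagcgccgcca
Rpl28, chr7:4792955-4792984, plus strand: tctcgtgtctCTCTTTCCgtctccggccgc
Rps21, chr2:180257369-180257398, plus strand: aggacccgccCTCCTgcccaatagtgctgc
A C at the annotated start followed by C or T, in a run of at least 5 bases and read on the transcribed strand alone, was present in 13 of 57 members (22.8%), against 813 of 27025 genes (3.01%) and 0 of 67 mitochondrial ribosomal protein genes. Besides the 6 shown, these were Rpl15, Rpl35, Rpl35a, Rpl38, Rps10, Rps15a and Rps27. The match depends on the base at which the annotation places the start, and its absence from the other members says only that these letters are not at that base. Rpl7a, Rpl27a and Rps24, for example, had runs of 7, 16 and 6 pyrimidines that began with a T.

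Ribosomal protein genes took almost the same share of gene reads in every library. The share of the 77 members was 1.84% for the library labelled shAsns-1, 1.83 and 1.78% for shAsns-2, and 1.78 and 1.79% for shRenilla. No hairpin stood apart from the others in this total. The sum over the large subunit and its stalk was 1.85 times that over the small subunit in the library labelled shAsns-1, 1.91 and 1.85 times in shAsns-2, and 1.85 and 1.76 times in shRenilla. The lowest of these ratios belonged to shRenilla B and the highest to shAsns-2 A.

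Levels of single members differed widely, here in CPM per kb of the main GENCODE M21 transcript, averaged over both shRenilla libraries. Their median was 165 for the large subunit without the stalk and 158 for the small subunit. Rpl41, which codes for a very short basic peptide, was highest at 2047, followed by Rpl4 at 1272, Rpl32 at 776 and Rps15 at 760.8. Rpl4, whose protein lines part of the exit tunnel of the nascent chain, took 10.1 to 11.6% of all member reads in each library, and Rpl41 took 4.54 to 5.93%.

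Rpl30 was lowest at 1.80 CPM per kb, followed by Rps27 at 3.17, Rpl34 at 3.64 and Rpl21 at 17.3. Rpl30 was seen with 13 reads for the library labelled shAsns-1, 7 and 10 for the shAsns-2 libraries and 15 and 16 in shRenilla. Some of these low levels belong to genes that share sequence with other annotated loci. Of the 31-base words of the main transcript, 84.3% for Rpl30, 98.7% for Rps27, 63.3% for Rpl34 and 27.4% for Rpl21 occur in another GENCODE gene. Among the symbols with 0 reads this share was 76.2% for Rpl26, 23.4% for Rpl10l and 2.19% for Rpl39l. Over the 77 members that share reached 99.0% (Rpl35) with a median of 63.1%, it exceeded 50% in 53, and every member shared words with at least 1 annotated pseudogene. The table's row for reads with several alignments held 0 in every library, and how such reads were treated is not given in the sources used here, so levels of single members are uncertain. Rpl35, with the highest share, had 3994 reads over the 5 libraries, beside a median of 9885 over the members. Its level was 63.8 CPM per kb, beside a median of 165 over the members. The part of shared sequence in the levels was not tested.

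Neighbours in the order of levels mostly could not be separated by their ranges over all 5 libraries with reads, hairpins and control together. These ranges overlapped in 68 of 76 neighbouring pairs. The other 8 pairs were apart, among them Rpl41 above Rpl4, Rpl4 above Rpl32, Rpl35a above Rpl21 and Rpl21 above Rpl34. The main transcripts of Rps15a and Rps20 are annotated with 5179 and 3706 bases, the longest of the members, so their places in this order (42.1 and 65.6 CPM per kb) rest on that length.

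**Figure D1:**
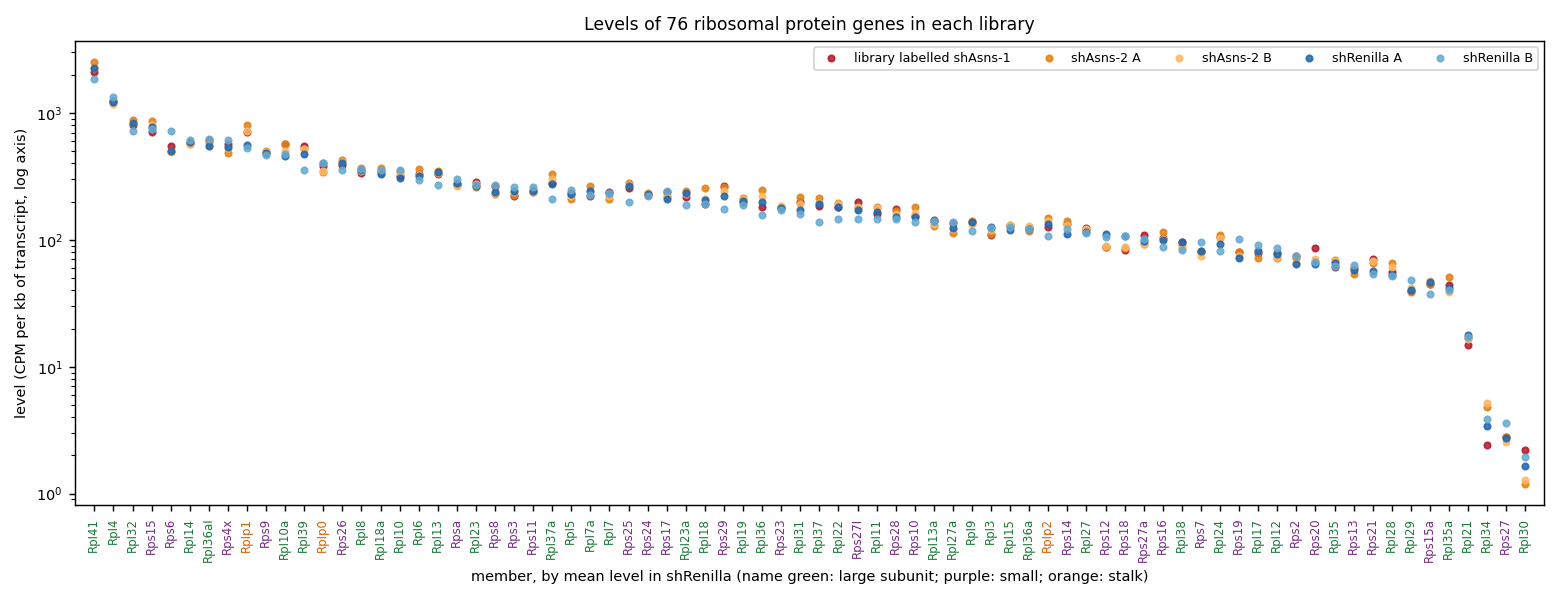
Level of 76 of the 77 members in CPM per kb of transcript (log axis), 1 point a library, ordered by the mean over both shRenilla libraries. Most members lie between 30 and 1000 in every library, and Rpl21, Rpl34, Rps27 and Rpl30 lie below the rest.

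In shAsns-2 relative to shRenilla, Rplp1 rose and none of the other 76 members was called, in either direction (edgeR quasi-likelihood test, adjusted p under 0.05 over 12457 genes). That is 1 of 77 members, against 0.0642% of all genes tested (8 genes, all higher). DESeq2 and limma-voom also called Rplp1 and no other member. At an unadjusted p under 0.05, 21 members were higher and 5 lower (33.8% of members, against 9.63% of all genes, 696 higher and 504 lower). The median SE was 0.0866 over the members and 0.112 over all genes, and these sets were not matched for read depth. The median log2 fold change was 0.07 over the members, 0.09 over the large subunit without the stalk and 0.05 over the small subunit, beside -0.00 over all genes. Members ranged from -0.52 (Rpl30) to 0.48 (Rplp1), and 46 of 77 were above 0.

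By the ranges of the libraries, 34 members (44.2%) had both shAsns-2 libraries above both shRenilla libraries, against 20.6% of all genes tested, and 18 (23.4%) had both below, against 20.7%. The higher group held 17 of 43 large-subunit genes and 15 of 31 small-subunit genes, and the lower group held 9 and 8. With the library labelled shAsns-1 added, 22 members (28.6%) had all 3 shAsns libraries above, against 12.6% of all genes, and 8 (10.4%) had all 3 below, against 13.3%: Rpl3, Rpl14, Rpl21, Rplp0, Rps3, Rps12, Rps18 and Rpsa.

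In the library labelled shAsns-1 relative to the same shRenilla libraries, Rplp1 and Rps20 rose and the other 75 members were not called (2 of 77, against 4.37% of all genes tested, 2.31% called higher and 2.06% called lower). In the fit reported no member was called lower, although Rps18 and Rps12 (length trend removed), Rps18 (no low-count filter) and Rps6 (without shRenilla A) were called lower under an alternative. At an unadjusted p under 0.05 there were 9 higher and 2 lower (14.3%, against 19.6% of all genes). DESeq2 and limma-voom called the same 2 members. The median was 0.04 over the members, beside -0.01 over all genes. In shAsns-2 relative to the library labelled shAsns-1, 0 members were called by edgeR, DESeq2 or limma-voom, against 2.14% of all genes by edgeR (1.33% higher and 0.811% lower), and 4 were higher and 2 lower at an unadjusted p under 0.05 (7.79%, against 16.8%). With 1 library of that hairpin, hairpin and library cannot be told apart.

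**Figure D2:**
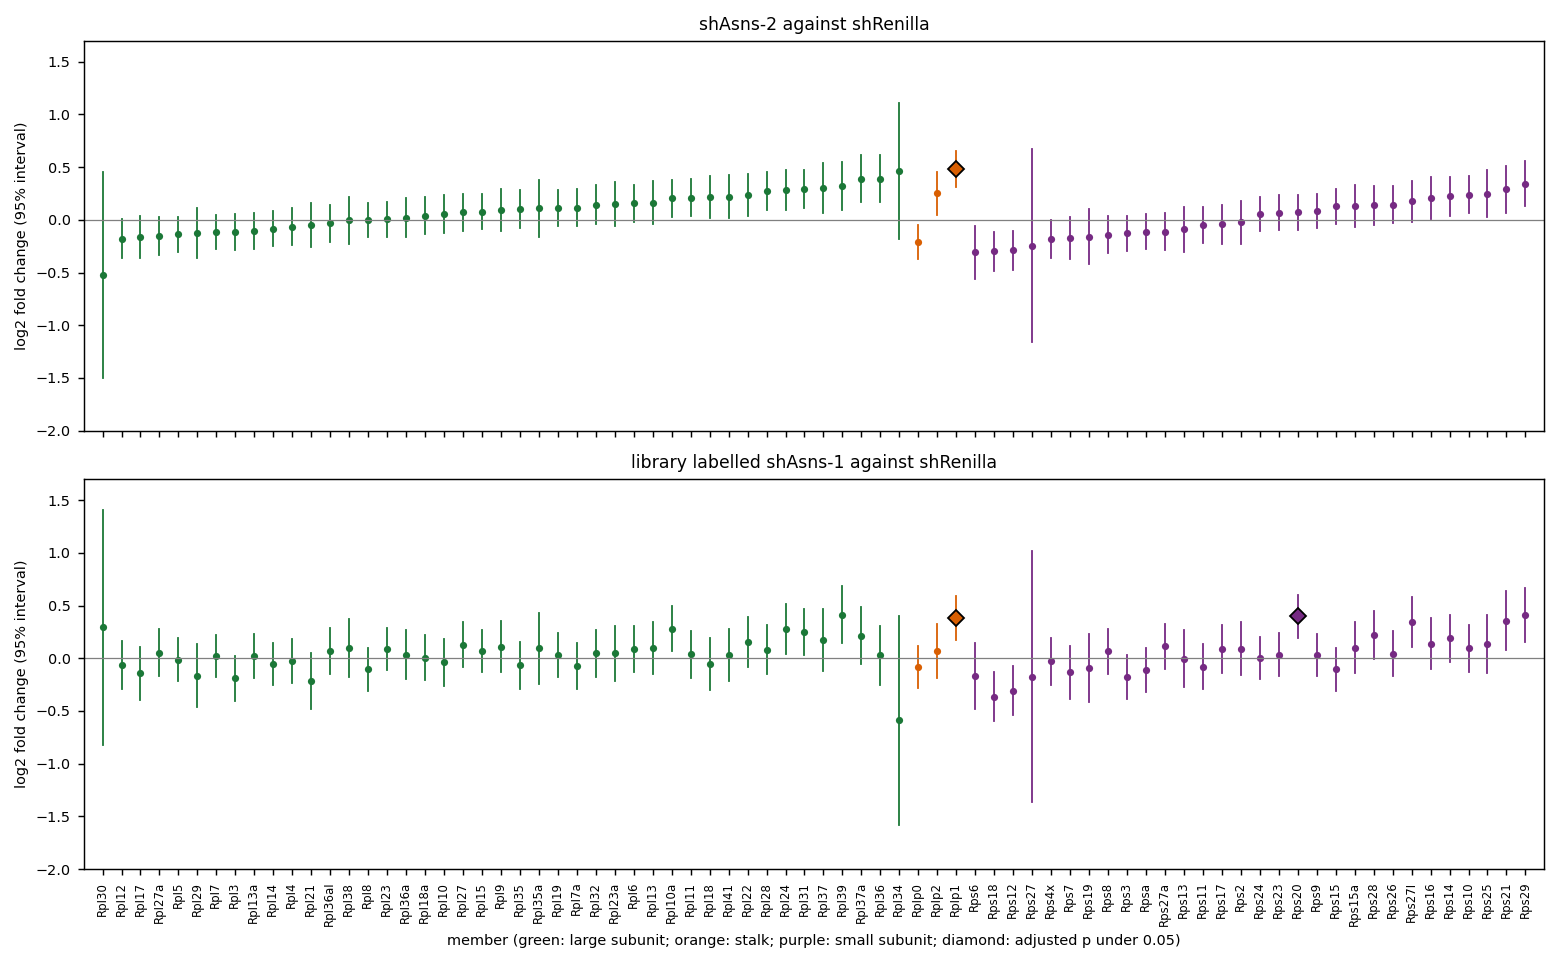
Log2 fold change of 76 of the 77 members with their 95% intervals in shAsns-2 (top) and in the library labelled shAsns-1 (bottom), both against the same 2 shRenilla libraries, ordered by the top value within the large subunit, stalk and small subunit. Called members are diamonds: Rplp1 in both panels and Rps20 in the bottom one, and the widest intervals belong to Rpl30, Rpl34 and Rps27.

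The 3 stalk genes did not move together. They also differ in coding length, with 951 bases for Rplp0, 342 for Rplp1 and 345 for Rplp2. The fold changes of the members followed coding length, as given below. The part of that length in the stalk values was not tested. Rplp1 (ENSMUSG00000007892.8, chr9:61913284-61914542, minus strand, 3 exons) stood at 354 CPM in the library labelled shAsns-1, at 400 and 361 CPM in shAsns-2, and at 279 and 266 CPM in shRenilla. All 3 shAsns libraries lay above both shRenilla libraries. The mean was 380 ± 27.8 CPM in shAsns-2 and 272 ± 9.24 CPM in shRenilla (SD, n = 2 each). The log2 fold change was 0.48 in shAsns-2 (SE 0.0818, adjusted p = 0.0349, edgeR) and 0.38 in the library labelled shAsns-1 (SE 0.0992, adjusted p = 0.0391). In shAsns-2 relative to the library labelled shAsns-1 it was 0.10 (95% interval -0.11 to 0.31, adjusted p = 0.654).

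Each library carries weight in these calls. Without shAsns-2 A, shAsns-2 B or shRenilla B, Rplp1 was at 0.41 (adjusted p = 0.998), 0.55 (0.166) and 0.45 (0.195) in shAsns-2, and it stayed called without shRenilla A (0.52, adjusted p = 0.0498) and without the library labelled shAsns-1 (0.48, adjusted p = 0.039). In the library labelled shAsns-1 the call was lost without any of the other 4 libraries, at adjusted p from 0.0511 to 0.116 and log2 fold changes from 0.35 to 0.42. Of its 31-base words, 75.1% occur in other annotated genes.

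Rplp0 (chr5:115559467-115563727, plus strand), the stalk base that binds the ribosomal RNA, stood at 517 CPM in the library labelled shAsns-1, at 467 and 477 CPM in shAsns-2, and at 547 CPM in both shRenilla libraries. All 3 shAsns libraries lay below shRenilla. Its log2 fold change was -0.21 in shAsns-2 (SE 0.0764, adjusted p = 0.389) and -0.08 in the library labelled shAsns-1 (adjusted p = 0.686). Rplp2 (chr7:141447370-141451585, plus strand), the other acidic protein, stood at 122 CPM in the library labelled shAsns-1, at 142 and 135 CPM in shAsns-2 and at 129 and 104 CPM in shRenilla. Both shAsns-2 libraries lay above both shRenilla libraries, and the library labelled shAsns-1 lay between shRenilla A and B. Its log2 fold change was 0.25 in shAsns-2 (adjusted p = 0.423) and 0.07 in the library labelled shAsns-1 (adjusted p = 0.812).

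The ratio of Rplp1 to Rplp0 reads was formed after both genes had been seen, and its direction follows from theirs. It was 0.686 for the library labelled shAsns-1, 0.856 and 0.756 for the shAsns-2 libraries and 0.510 and 0.486 in shRenilla. The ratio of Rplp1 to Rplp2 was 2.91 for the library labelled shAsns-1, 2.82 and 2.67 for the shAsns-2 libraries, and 2.17 and 2.57 in shRenilla, again with every shAsns library above both shRenilla libraries.

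**Figure D3:**
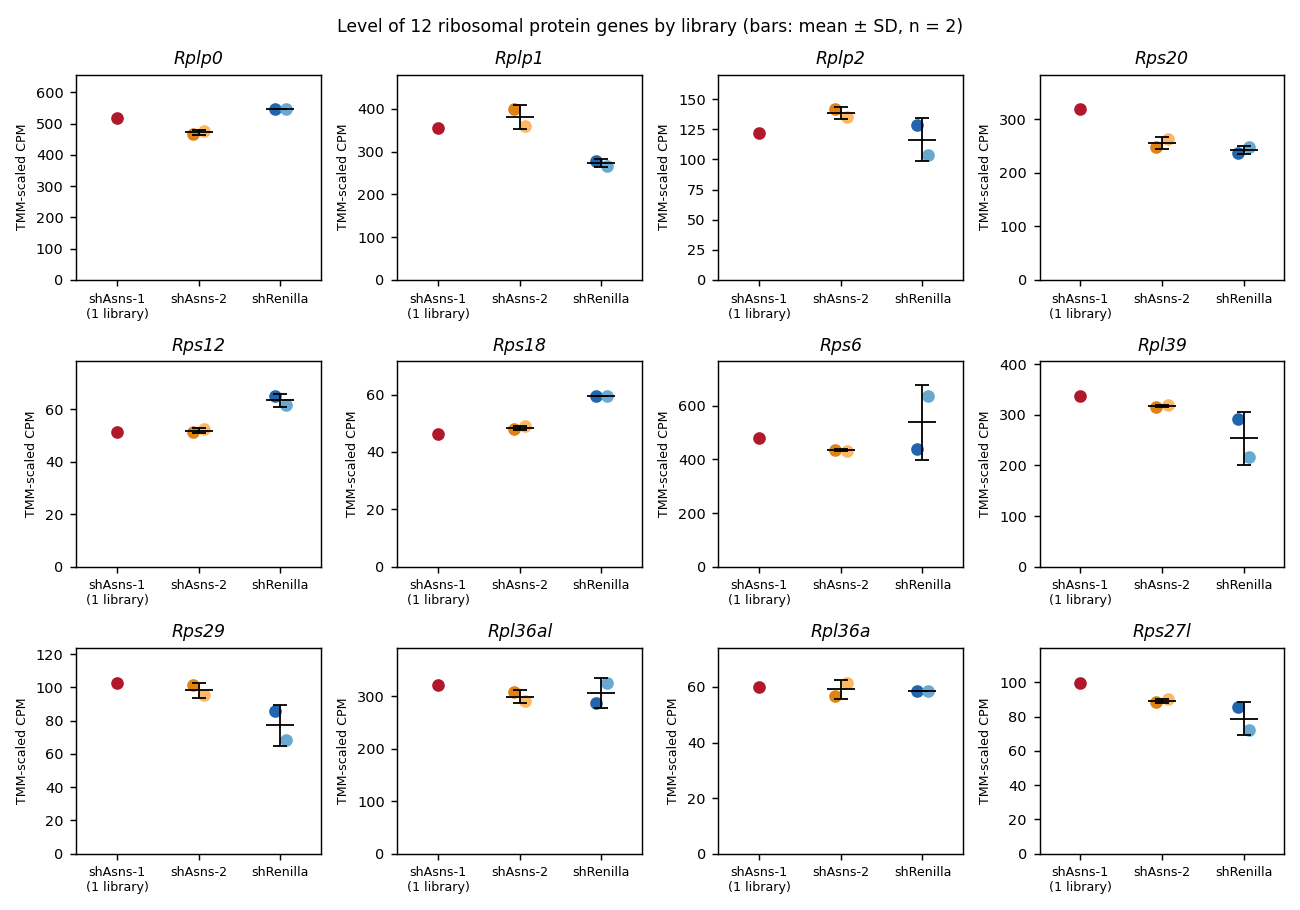
TMM-scaled CPM of 12 members in each library (points), with mean ± SD for shAsns-2 and shRenilla (n = 2 each) and the single library labelled shAsns-1 at the left. Rplp1 is higher and Rplp0, Rps12 and Rps18 are lower in all 3 shAsns libraries than in both shRenilla libraries, and for Rps6 and Rpl39 the 2 shRenilla points lie far apart.

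Rps20 (chr4:3831334-3835665, minus strand), a protein of the head of the small subunit, was the 1 small-subunit gene called. It stood at 320 CPM in the library labelled shAsns-1, at 248 and 263 CPM in shAsns-2, and at 238 and 248 CPM in shRenilla. The library labelled shAsns-1 was above all the others, and both shAsns-2 libraries lay just above shRenilla. The log2 fold change was 0.40 in the library labelled shAsns-1 (SE 0.0953, adjusted p = 0.0265) and 0.07 in shAsns-2 (adjusted p = 0.801). In shAsns-2 relative to the library labelled shAsns-1 it was -0.32 (SE 0.0958, adjusted p = 0.0898). Its call against shRenilla did not hold without either shAsns-2 library (adjusted p = 0.0953 without A, 0.0925 without B) or without shRenilla A (0.0574), and with the trend on GC content removed (0.26, adjusted p = 0.148). Across all genes the fold change of that library fell with GC content (Spearman -0.33 over 8002 genes, a description).

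Among the small-subunit genes furthest below 0, Rps18 and Rps12 were lower with little spread, and Rps6 with much. Rps18 (chr17:33951999-33956001), which contacts the large subunit from the head, stood at 46.3 CPM in the library labelled shAsns-1, 48.0 and 48.9 CPM in shAsns-2, and 59.5 and 59.6 CPM in shRenilla. Rps12 stood at 51.2 CPM in the library labelled shAsns-1, 51.2 and 52.6 CPM in shAsns-2, and 65.2 and 61.5 CPM in shRenilla. For both, every shAsns library lay below both shRenilla libraries. The log2 fold changes of Rps18 were -0.30 in shAsns-2 (SE 0.0868, adjusted p = 0.269) and -0.36 in the library labelled shAsns-1 (SE 0.11, adjusted p = 0.071), and those of Rps12 were -0.29 (adjusted p = 0.303) and -0.31 (adjusted p = 0.127). None of these was called in the fit reported. In the library labelled shAsns-1 Rps18 was called with no low-count filter (-0.38, adjusted p = 0.0472), and both were called with the length trend removed (Rps18 at -0.45, adjusted p = 0.0209, and Rps12 at -0.39, adjusted p = 0.0458). Of the 31-base words of Rps18 and Rps12, 90.8 and 84.1% occur in other genes.

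Rps6, the substrate of the S6 kinases, stood at 479 CPM in the library labelled shAsns-1, at 437 and 433 CPM in shAsns-2, and at 440 and 638 CPM in shRenilla. Its value of -0.31 in shAsns-2 (SE 0.12, adjusted p = 0.428) went with the spread of the control: shRenilla A lay close to both shAsns-2 libraries and shRenilla B far above all the others. Over the alternatives the value of Rps6 in shAsns-2 ran from -0.55, without shRenilla A, to -0.02. It was called with no low-count filter (-0.31, adjusted p = 0.0287, edgeR). Rps4x, encoded on the X chromosome, stood at 550.0 CPM in the library labelled shAsns-1, 474 and 515 CPM in shAsns-2 and 522 and 601 CPM in shRenilla (log2 fold changes -0.03 and -0.18, adjusted p = 0.912 and 0.516, for the library labelled shAsns-1 and shAsns-2).

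The members furthest above 0 after Rplp1 had short coding sequences. Rpl36 stood at 69.5 CPM in the library labelled shAsns-1, 94.97 and 84.4 CPM in shAsns-2, and 76.3 and 60.0 CPM in shRenilla. Only shAsns-2 lay above shRenilla, with log2 fold changes of 0.39 in shAsns-2 (adjusted p = 0.222) and 0.03 in the library labelled shAsns-1 (adjusted p = 0.931), and 0.36 between them (adjusted p = 0.18). Rpl37a, a zinc-binding protein, stood at 156 CPM in the library labelled shAsns-1, 185 and 169 CPM in shAsns-2, and 152 and 117 CPM in shRenilla (0.39 in shAsns-2, adjusted p = 0.222, and 0.21 in the library labelled shAsns-1, adjusted p = 0.391). Its shAsns libraries all lay above shRenilla.

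Rpl39, a small protein of the exit tunnel, stood at 338 CPM in the library labelled shAsns-1, 316 and 319 CPM in shAsns-2, and 291 and 217 CPM in shRenilla. Rps29, a zinc-finger protein of the head, stood at 103 CPM in the library labelled shAsns-1, 101 and 95.2 CPM in shAsns-2, and 86.0 and 68.5 CPM in shRenilla. Both were above shRenilla in every shAsns library, with shRenilla B the lowest of the 5. The log2 fold changes of Rpl39 were 0.41 in the library labelled shAsns-1 (adjusted p = 0.079) and 0.32 in shAsns-2 (adjusted p = 0.331), and those of Rps29 were 0.41 (adjusted p = 0.0657) and 0.34 (adjusted p = 0.269). Rpl34 and Rpl30 reached 0.46 and -0.52 in shAsns-2 and -0.59 and 0.29 in the library labelled shAsns-1, on 123 and 61 reads in all, with SEs of 0.304 to 0.527.

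Of the members nearest to the ends between the hairpins, Rpl18 was at 0.27 (adjusted p = 0.262), Rps15 at 0.23 (adjusted p = 0.237), Rps27a, made as a fusion to ubiquitin, at -0.23 (adjusted p = 0.278) and Rpl27a at -0.21 (adjusted p = 0.34), for shAsns-2 relative to the library labelled shAsns-1. Rpl21 was at -0.05 in shAsns-2 and -0.22 in the library labelled shAsns-1 against shRenilla (adjusted p = 0.908 and 0.373). None of the 5 was called in the fit reported, and Rpl18 was called between the hairpins with a replicate block (0.36, adjusted p = 0.0287).

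The fold changes of the members followed the length of their coding sequence, and so did the difference between the 2 control libraries. Of the 74 members with at least 100 reads in every library, 16 (21.6%) differed by more than 0.25 (log2) between shRenilla B and A, against 13.8% of all genes with as many reads. Between shAsns-2 B and A these were 2 (2.70%), against 6.72%. The SD of the log2 ratio over the members was 0.203 for shRenilla and 0.102 for shAsns-2. Over all genes with as many reads it was 0.173 for shRenilla and 0.135 for shAsns-2. Chi-square per degree of freedom over the members was 35.7 for shRenilla and 6.59 for shAsns-2, and over all genes it was 12.5 for shRenilla and 3.90 for shAsns-2. Both pairs thus differed by more than counting error, which takes reads as independent molecules and says nothing about the kind of replicate. Chi-square grows with the number of reads, so it does not compare the spread of members with that of all genes.

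The ratio of shRenilla B to A rose with coding length over the members (Spearman 0.48, n = 74), while over all genes it went the other way (-0.20, n = 7882). It ran from -0.46 at Rpl37 to 0.54 at Rps6. The fold change of shAsns-2 fell with coding length over the members (Spearman -0.51, n = 74, against -0.01 over all genes), and that in the library labelled shAsns-1 did so too (-0.51, against -0.23). These are descriptions across genes that share libraries, and both comparisons use the same shRenilla libraries.

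**Figure D4:**
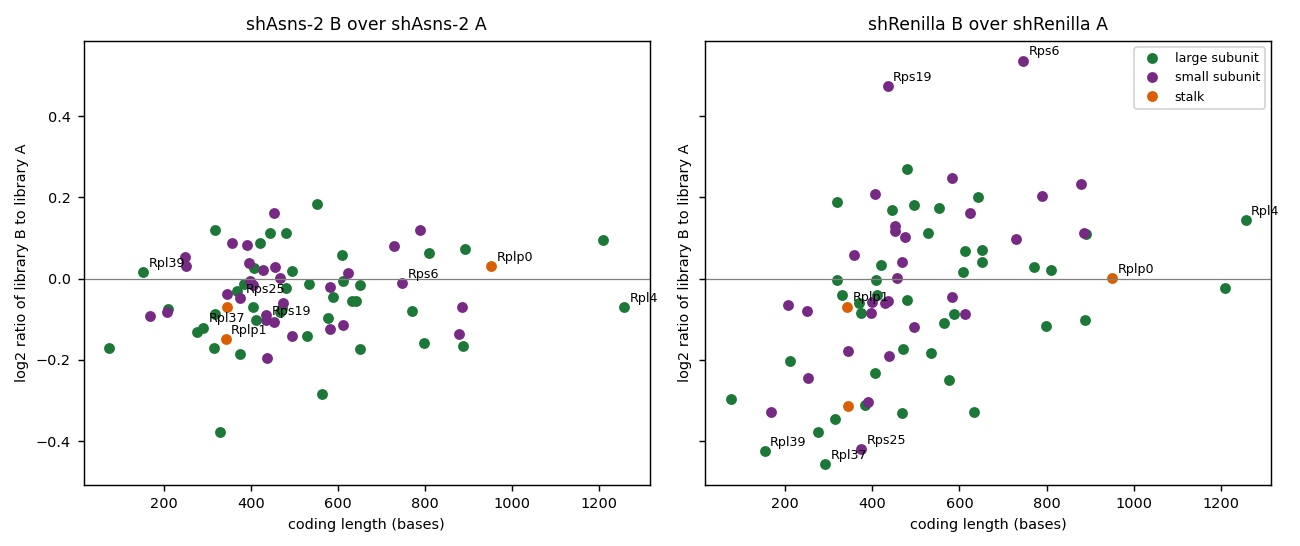
Log2 ratio of library B to library A within shAsns-2 (left) and within shRenilla (right) against coding length in bases, for the 74 members with at least 100 reads in every library. The shRenilla points spread from -0.46 to 0.54 with the short genes low, and the shAsns-2 points from -0.38 to 0.18.

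Split at 450 coding bases, a limit chosen after the values were seen, the 37 shorter members had a median log2 fold change of 0.14 in shAsns-2 and the 40 longer ones -0.05, beside 0.04 and -0.00 for all genes of those lengths. Without shRenilla B the medians were 0.08 for the shorter and 0.00 for the longer members, beside 0.08 and -0.01 for all genes of those lengths. Without shRenilla A they were 0.24 and -0.10, beside 0.05 and 0.00. In the library labelled shAsns-1 they were 0.09 and -0.01, and all genes of the shorter class also had 0.09. Without shRenilla B the shorter members had 0.04 in that library, beside 0.10 for all genes of the shorter class. The part of shRenilla B in the fold changes of the short members was not tested beyond these values.

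The paralogs whose names end in l were Rps27l and Rpl36al. Rps27l is shown here beside its partner because reads can be told apart only where the sequences differ. The coding sequences (GENCODE M21, GRCm38, stop codon left out) are written in the direction of transcription, with every base that differs between the partners in capitals.
Rps27, gene at chr3:90212522-90213651, minus strand: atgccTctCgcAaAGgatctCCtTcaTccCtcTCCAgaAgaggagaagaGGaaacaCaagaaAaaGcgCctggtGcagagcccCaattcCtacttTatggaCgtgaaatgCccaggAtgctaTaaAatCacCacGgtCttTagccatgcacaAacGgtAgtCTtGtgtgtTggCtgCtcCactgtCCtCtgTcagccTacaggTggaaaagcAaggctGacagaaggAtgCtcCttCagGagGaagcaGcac
Rps27l, gene at chr9:66946086-66949516, plus strand: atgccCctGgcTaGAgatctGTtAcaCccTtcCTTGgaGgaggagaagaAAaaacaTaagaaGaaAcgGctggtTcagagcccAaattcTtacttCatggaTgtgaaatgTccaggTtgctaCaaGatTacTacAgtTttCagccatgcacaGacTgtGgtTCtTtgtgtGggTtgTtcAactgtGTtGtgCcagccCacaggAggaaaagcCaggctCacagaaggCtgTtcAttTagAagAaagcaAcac
Rps27 and Rps27l are 252 coding bases each and differ at 60 of them (76.2% identity), and their longest identical run is 11 bases. The differences are thus dense enough to separate these partners from each other. They say nothing about other annotated genes that share sequence with either partner. Of the 31-base words, 98.7% for Rps27 occur in other annotated genes, against 29.6% for Rps27l, and 88.3% for Rpl36a, against 64.7% for Rpl36al.

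Rps27l took nearly all the reads of its pair. Rps27l stood at 99.9 CPM in the library labelled shAsns-1, 88.3 and 90.1 CPM in shAsns-2, and 85.6 and 72.2 CPM in shRenilla, highest in the library labelled shAsns-1 and lowest in shRenilla B. Rps27 had 10 reads for the library labelled shAsns-1, 10 and 12 for the shAsns-2 libraries, and 15 and 18 in shRenilla. The ratio of Rps27l to Rps27 reads was 104 in the library labelled shAsns-1 (exact 95% interval 56.3 to 217), 90.9 and 103 in the shAsns-2 libraries (49.2 to 190.2 and 58.9 to 200.4), and 91.1 and 58.0 in shRenilla (55.0 to 163 and 36.5 to 98.3). All 5 intervals, which cover counting error only, overlapped. Rps27l had a log2 fold change of 0.34 in the library labelled shAsns-1 (SE 0.112, adjusted p = 0.0965) and 0.18 in shAsns-2 (adjusted p = 0.566), and Rps27 had -0.17 and -0.24 (adjusted p = 0.902 and 0.898).

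Rpl36al was the larger of its pair in every library and neither partner was called. Rpl36al stood at 321 CPM in the library labelled shAsns-1, 309 and 291 CPM in shAsns-2, and 287 and 326 CPM in shRenilla. Rpl36a stood at 59.9 CPM in the library labelled shAsns-1, 56.7 and 61.6 CPM in shAsns-2, and 58.6 and 58.4 CPM in shRenilla. The hairpins overlapped for both genes. The ratio of Rpl36al to Rpl36a reads was 5.36 for the library labelled shAsns-1, 5.44 and 4.72 for the shAsns-2 libraries, and 4.89 and 5.58 in shRenilla. The 95% interval of the shAsns-2 log2 fold change was -0.21 to 0.15 for Rpl36al and -0.17 to 0.20 for Rpl36a.

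The tissue-restricted paralogs were at or near 0. Rpl3l, known from heart and skeletal muscle, had 5 reads in all. Rpl10l and Rpl39l, known from testis, had 0 reads (up to 0.188 to 0.293 CPM a library, 3 reads without TMM scaling, counting error only). Their partners were well expressed: Rpl3, near the peptidyl transferase centre, had a log2 fold change of -0.11 in shAsns-2 and -0.19 in the library labelled shAsns-1 (adjusted p = 0.66 and 0.303), and Rpl10, which joins the large subunit late, had 0.06 and -0.04 (adjusted p = 0.87 and 0.884).

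Relatives of the family that the symbol rule leaves out, listed together with the Rps19-binding protein Rps19bp1, were not called either. Of 9 symbols listed, some of them other names of the same gene, 7 were tested. By edgeR 0 were called in shAsns-2 or in the library labelled shAsns-1 (1 and 2 lower at an unadjusted p under 0.05). The median log2 fold changes were -0.01 and -0.05. Rpl7l1, a paralog of Rpl7, stood at 57.0 CPM in the library labelled shAsns-1, 51.2 and 54.3 CPM in shAsns-2 and 62.5 and 76.1 CPM in shRenilla, all 3 below shRenilla (-0.39 in shAsns-2, adjusted p = 0.211, and -0.28 in the library labelled shAsns-1, adjusted p = 0.229). Fau, whose protein is made as a fusion to a ubiquitin-like domain, and Gnb2l1, the scaffold Rack1, were at -0.01 and -0.08 in shAsns-2. Rps3a1 was at 0.07, Rpl22l1 at 0.03 and Rps19bp1 at -0.07. In the library labelled shAsns-1 the furthest from 0 was Rps19bp1 (-0.49, adjusted p = 0.218), at 11.3 CPM there and at 12.8 and 19.1 CPM in shRenilla. The median size of the change there was 0.13 over these 7 genes and 0.09 over the members, and in shAsns-2 it was 0.07 and 0.15 (log2, not tested).

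Translation factors and other genes, such as Tpt1, that were listed for TOP messages had medians below 0. Their own starts are not given here. Of 20 tested, 0 were called in either comparison by edgeR (1 higher and 1 lower at an unadjusted p under 0.05 in shAsns-2, and 1 and 3 in the library labelled shAsns-1), with medians of -0.06 in shAsns-2 and -0.10 in the library labelled shAsns-1. The furthest above 0 in shAsns-2 were Eif3e (0.29, adjusted p = 0.423), Eif3k (0.16) and Pabpc4 (0.12), and the furthest below were Eef1b2 (-0.27, adjusted p = 0.29), Tpt1 (-0.13) and Eif3h (-0.12). Eif3e, a subunit of initiation factor 3, stood at 317 CPM in the library labelled shAsns-1, 287 and 293 CPM in shAsns-2, and 275 and 198 CPM in shRenilla, with shRenilla B apart from the other 4.

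Of 13 chaperones of single ribosomal proteins, with Larp1, none was called in shAsns-2 by edgeR (0 at an unadjusted p under 0.05, median -0.03), and Tsr2, the carrier of Rps26, fell in the library labelled shAsns-1. Tsr2 stood at 14.7 CPM there, at 20.7 and 21.6 CPM in shAsns-2 and at 20.5 and 23.5 CPM in shRenilla (-0.58, adjusted p = 0.0468). Larp1 stood at 508 CPM in the library labelled shAsns-1, 662 and 660.5 CPM in shAsns-2 and 675 and 614 CPM in shRenilla (-0.34, adjusted p = 0.0601, in the library labelled shAsns-1 against shRenilla). Only the library labelled shAsns-1 was low for both genes.

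Mitochondrial ribosomal protein genes gave a different count from the cytosolic ones. Of 77, 7 (9.09%) had both shAsns-2 libraries above both shRenilla libraries and 31 (40.3%) had both below, against 20.6 and 20.7% of all genes. Their median log2 fold change was -0.05 in shAsns-2, with 0 called by edgeR (1 higher and 8 lower at an unadjusted p under 0.05), and -0.03 in the library labelled shAsns-1, where Mrps6 rose (0.40, adjusted p = 0.0472). The difference between the cytosolic and mitochondrial genes was not tested. Of 6 ribosomal protein pseudogenes in the table, 4 were tested and 0 called (2 higher at an unadjusted p under 0.05 in shAsns-2, 0 in the library labelled shAsns-1). Rpl31-ps12 stood at 254 CPM in the library labelled shAsns-1, 292 and 259 CPM in shAsns-2 and 238 and 223 CPM in shRenilla, more reads than its parent Rpl31 in each.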

How the data were processed

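Messenger RNA was measured in 5 libraries of 4T1 cells, with the empty column of shAsns-1 B left out. The deposited values are whole-number read counts per gene, made by the authors with Bowtie2, HTSeq and the build mm10, per the submitters' processing notes; Trizol and the Nugen Ovation V2 kit are given in the labels. Which versions, gene annotation and strand setting were used is not given in the sources used here. Reads in no annotated feature (36.1 to 38.3%), unaligned reads (17.9 to 23.2%) and ambiguous reads (0.584 to 0.626%) stayed out of library sizes and tests.

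Counts were filtered with filterByExpr (12457 genes), scaled with TMM and given to edgeR 4.0.16 (R 4.3.3, limma 3.58.1) as 1 quasi-likelihood fit over 3 groups, with 2 residual degrees of freedom and a biological coefficient of variation of 6.23%. The fit takes the spread of the single shAsns-1 library from the other 2 groups. Benjamini-Hochberg adjustment ran over all genes tested, calls were made at an adjusted p under 0.05, and SEs are the log2 fold change over the root of F. The shAsns-2 against shRenilla comparison was tried on simulated counts with the same spread for every gene and changes set in shAsns-2 alone. That trial does not cover the comparisons with the library labelled shAsns-1, or a control pair with more spread than shAsns-2. Alternatives were DESeq2 1.42.0, limma-voom, other scalings, no low-count filter, removal of GC or length trends, and a replicate block. The length trend is that on transcript length, not on coding length. Further alternatives were fits of the compared groups alone, and each library left out.

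Lengths, coding sequences and shared 31-base words came from GENCODE M21 (GRCm38), and starts from RefSeq. All 77 members matched the annotation by symbol. The members, lists and named genes were chosen with earlier results of these data known. Named were the stalk genes, the paralogs ending in l with their partners, called members, the 4 highest and 4 lowest fold changes of each comparison, the 4 highest and 4 lowest levels, and the most changed genes of each list, given mainly for shAsns-2. Other genes named were chosen after their values were seen. Some genes and sequences are not reported here.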

Additional observations from a re-analysis of the deposited data

Results flagged for a closer look

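Asns, the target of both hairpins, differed between them by -1.26 on the log2 scale for shAsns-2 relative to the library labelled shAsns-1 (SE 0.103, adjusted p = 5.96e-06, edgeR's quasi-likelihood test). The shAsns-2 libraries had 46.5 and 44.7 CPM and the library labelled shAsns-1 had 109 CPM, with 58.7 and 56.2 CPM in shRenilla. The values of ribosomal protein genes given for that library therefore belong to a library in which the target was higher than in the control, and with 1 such library hairpin and library cannot be told apart.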

How the results depend on the processing

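The number of members called in shAsns-2 against shRenilla, 1 as reported (0.0642% of all genes), was 0 with library size alone and with the GC trend removed (0.0482% of all genes each), and 6 with no low-count filter (0.595%: Rpl36, Rpl37a, Rpl39, Rplp1 and Rps29 higher, Rps6 lower). With each library left out it ran from 0 to 7: 0 without shAsns-2 A or shRenilla B, where no gene at all was called, 0 without shAsns-2 B (0.0489%), and 7 without shRenilla A (0.384%: Rpl37, Rpl37a, Rpl39, Rplp1, Rps25 and Rps29 higher, Rps6 lower). In the library labelled shAsns-1 the count, 2 as reported (4.37%), was 5 with no filter (4.79%: Rpl39, Rplp1, Rps20 and Rps29 higher, Rps18 lower), 1 with the GC trend removed (2.96%) and 0 when only the groups compared were fitted (2.42%). With the length trend removed it was 3 (5.76%): Rps20 was higher, Rps12 and Rps18 were lower, and Rplp1 was lost. With each library left out it was 0 to 4: 0 without shAsns-2 A or B (2.34 and 2.46%), 1 without shRenilla B (6.74%), and 4 without shRenilla A (3.05%: Rpl39, Rps27l and Rps29 higher, Rps6 lower). Between the hairpins the count, 0 as reported (2.14%), was 1 with no filter (3.17%), 2 when only the groups compared were fitted (6.74%), and 0 to 1 with each library left out (0.468 to 5.24%). The cause of these moves was not tested.

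A and B share only a letter across hairpins, and the labels name no shared source, so the libraries were not treated as paired. The A to B differences of shAsns-2 and shRenilla correlated at 0.0268 over 8952 genes and at 0.255 over 74 members. With the replicate block 7 members were called in shAsns-2 against shRenilla (1.43% of all genes; 7 also with the GC trend removed, 0.883%), all higher: Rpl31, Rpl36, Rpl37, Rpl37a, Rpl39, Rplp1 and Rps29. There were 3 in the library labelled shAsns-1 (7.42%: Rpl39, Rplp1 and Rps20), and 3 between the hairpins (7.02%: Rpl18 and Rpl36 higher, Rps20 lower).

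The median over the members was -0.0135 in the library labelled shAsns-1 with the length trend removed. Between the hairpins it was -0.0089 with library size alone, -0.00665 with the GC trend removed, and -0.0133 to 0.0325 with each library left out. Of the 37 shorter and 40 longer members, 22 and 12 were above 0 in the library labelled shAsns-1 with the length trend removed, beside 31 and 19 as reported, and 17 and 16 between the hairpins with library size alone, beside 21 and 23.

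Rplp1 in shAsns-2 was not called with library size alone (0.45, adjusted p = 0.0652) or with the GC trend removed (0.45, adjusted p = 0.0516), and in the library labelled shAsns-1 with the length trend removed (0.29, adjusted p = 0.0633) or when only the groups compared were fitted (0.38, adjusted p = 0.107). Over the alternatives its adjusted p ran from 1.21e-05 to 0.998 in shAsns-2. Rps20 between the hairpins was called with the replicate block (-0.36, adjusted p = 0.0234), without shRenilla B (-0.32, adjusted p = 0.0321) and when only the groups compared were fitted (-0.32, adjusted p = 0.019).

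Alternatives were run for single genes only where the text names them by rule. Among those members the sign turned in 26 cases, none of them called. With the GC trend removed it turned for Rplp1 between the hairpins at -0.000912 and Rpl36a between the hairpins at 0.0254. With the replicate block it turned for Rplp2 in the library labelled shAsns-1 at -0.0218, Rpl10 in the library labelled shAsns-1 at 0.000554, Rpl39 between the hairpins at 0.0169 and Rps4x in the library labelled shAsns-1 at 0.0548. With the length trend removed it turned for Rpl36al in the library labelled shAsns-1 at -0.0145, Rpl36a in shAsns-2 at -0.073 and Rpl36a in the library labelled shAsns-1 at -0.0542. With the GC trend removed beside the block it turned for Rpl10 in the library labelled shAsns-1 at 0.0282, Rpl36a between the hairpins at 0.00246, Rpl39 between the hairpins at 0.0326 and Rps4x in the library labelled shAsns-1 at 0.0585. With library size alone it turned for Rpl36a in shAsns-2 at -0.0095. With no low-count filter it turned for Rpl36a between the hairpins at 0.000672. With each library left out, the ranges that crossed 0 were, in the library labelled shAsns-1 Rplp2 -0.0793 to 0.235, Rpl36al -0.0199 to 0.167, Rpl10 -0.135 to 0.0662, Rps27 -0.367 to 0.0342 and Rps4x -0.127 to 0.076, and in shAsns-2 Rpl36al -0.123 to 0.0633, Rpl10 -0.0396 to 0.161 and Rpl36a -0.045 to 0.0746, and between the hairpins Rpl36a -0.081 to 0.0393 and Rps27 -0.139 to 0.0121.

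Depth limits Rpl30, Rps27 and Rpl34 (61, 65 and 123 reads in all).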
